A study of Mus musculus with 17 samples.

Results

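The genes described here encode lysosomal hydrolases, lysosomal membrane proteins, subunits of the lysosomal proton pump and the transcription factor TFEB. They were taken from a list of 40 gene symbols, with cathepsins left out, and each was read from the probe set that carries its Entrez gene identifier. Of the 40, 38 were measured, among 15780 named genes on the array. No probe set was named Cd63 or Dnase2a here, so these 2 were not analysed. The rule that defines the list names genes by function and uses no measured value, but the list was drawn up with earlier results of these data known. Its label names hydrolases and membrane proteins. The list also holds genes of proton pump subunits, Npc2, Psap (the saposin precursor) and Tfeb, a nuclear regulator of lysosomal genes.

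Lysosomes are the acidic compartment in which a macrophage digests what it has engulfed, such as dead cells, immune complexes and lipoproteins. Soluble hydrolases break down the material, membrane proteins line the compartment and export the products, and the vacuolar proton pump keeps the lumen acidic. TFEB and its relatives MITF and TFE3 bind short E-box type DNA motifs near the start of many lysosomal genes, and in osteoclasts MITF is a known activator of Acp5, the gene of tartrate-resistant acid phosphatase.

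The cells were F4/80hi macrophages sorted from kidneys of NZB/W mice, a hybrid strain that develops lupus nephritis without any further treatment. The 6 prenephritic samples came from mice of 8 to 16 weeks of age. The 7 nephritic samples were taken 2 to 6 weeks after proteinuria began and before terminal renal failure. The 4 remission samples came from mice 3 to 4 weeks into complete remission that had been given 1 dose of cyclophosphamide, 6 doses of CTLA4Ig and an antibody to CD154. All groups share the strain, the tissue and the sort. The labels give an age for prenephritic mice alone, so age and disease cannot be told apart, nor can remission and the drugs. Whether each sample was a separate animal is not stated, and p-values therefore measure the spread between these samples, which may be technical.

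Values were log2 expression, 1 array per sample, with array medians from 7.49 to 7.68 and correlations between arrays from 0.942 to 0.994. Adgre1, which encodes the sort marker F4/80, averaged 13.08 ± 0.18 (SD, n = 6) in prenephritic and 13.24 ± 0.09 (SD, n = 7) in nephritic arrays. Itgam, the gene of CD11b, rose from 7.50 ± 0.36 (SD, n = 6) to 9.59 ± 0.27 (SD, n = 7) and averaged 7.99 ± 0.37 (SD, n = 4) in remission. Kidney tubule RNA varied between arrays: a score over 32 proximal and distal tubule genes (mean centred log2 value) ran from -2.16 in nephritic replicate 3 to 1.40 in remission replicate 2. It averaged -0.13 ± 0.63 (SD, n = 6), -0.34 ± 0.89 (SD, n = 7) and 0.79 ± 0.62 (SD, n = 4) in prenephritic, nephritic and remission arrays. By exact two-sided permutation tests, adjusted over the 3 comparisons, the score was not shown to differ between groups (p = 0.67, 0.093 and 0.093 for nephritic against prenephritic, remission against nephritic and remission against prenephritic). RNA from fewer cells of a type and less RNA per cell cannot be told apart in such sorted bulk samples.

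Lysosomal genes were called higher in nephritic macrophages more often than all genes tested, dim ones included, and called lower in remission more often as well. With a Benjamini-Hochberg threshold of 0.05 over all genes in limma's moderated test, 12 of 38 members (31.6%) rose in nephritic arrays, where 6.74% of all genes rose. One member, Arsb, fell (2.63%), where 5.32% of all genes fell, a share no higher than that of all genes. The differences of the 38 ran from -0.36 to 2.00 on the log2 scale with a median of 0.13, and 32 were above 0. Over all genes the median was -0.02 and 45.7% were above 0. From nephritic to remission, 8 of 38 members fell (21.1%), where 10% of all genes fell, and 0 rose, where 3.27% of all genes rose. At an unadjusted p under 0.05, 2 members were higher in remission than in nephritic arrays and 13 were lower. Of all genes, 29.4% reached that level in either direction. The median over members was -0.15 against -0.03 over all genes. Both comparisons use the same nephritic arrays. With dim genes left out, 1070 of 11923 genes rose and 844 fell in nephritic arrays. From nephritic to remission, 602 of them rose and 1660 fell. Each of these counts was larger than with all 15780 genes tested, so the shares to set the members against were higher. The member counts stayed the same, 12 and 1 and then 0 and 8. Whether the members exceed genes of similar level was not tested.

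The members that rose in nephritic arrays were Acp5, Gla, Acp2, Galns, Scarb2, Ppt1, Lgmn, Atp6v0d1, Npc1, Atp6v1h, Neu1 and Lamp1, in order of their difference. Those lower in remission than in nephritic arrays were Acp5, Acp2, Gla, Scarb2, Galns, Ppt1, Atp6v0d1 and Npc1. In 7 of the 38 members every nephritic array lay above every prenephritic array, an order found in 3.07% of all genes; they were Acp5, Acp2, Gla, Galns, Ppt1, Npc1 and Atp6v0d1. In 1 member, Arsb, every nephritic array lay below, an order found in 1.61% of all genes. In 7 members every remission array lay below every nephritic array (6.95% of all genes), all of those that fell but Npc1.

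**Figure D1:**
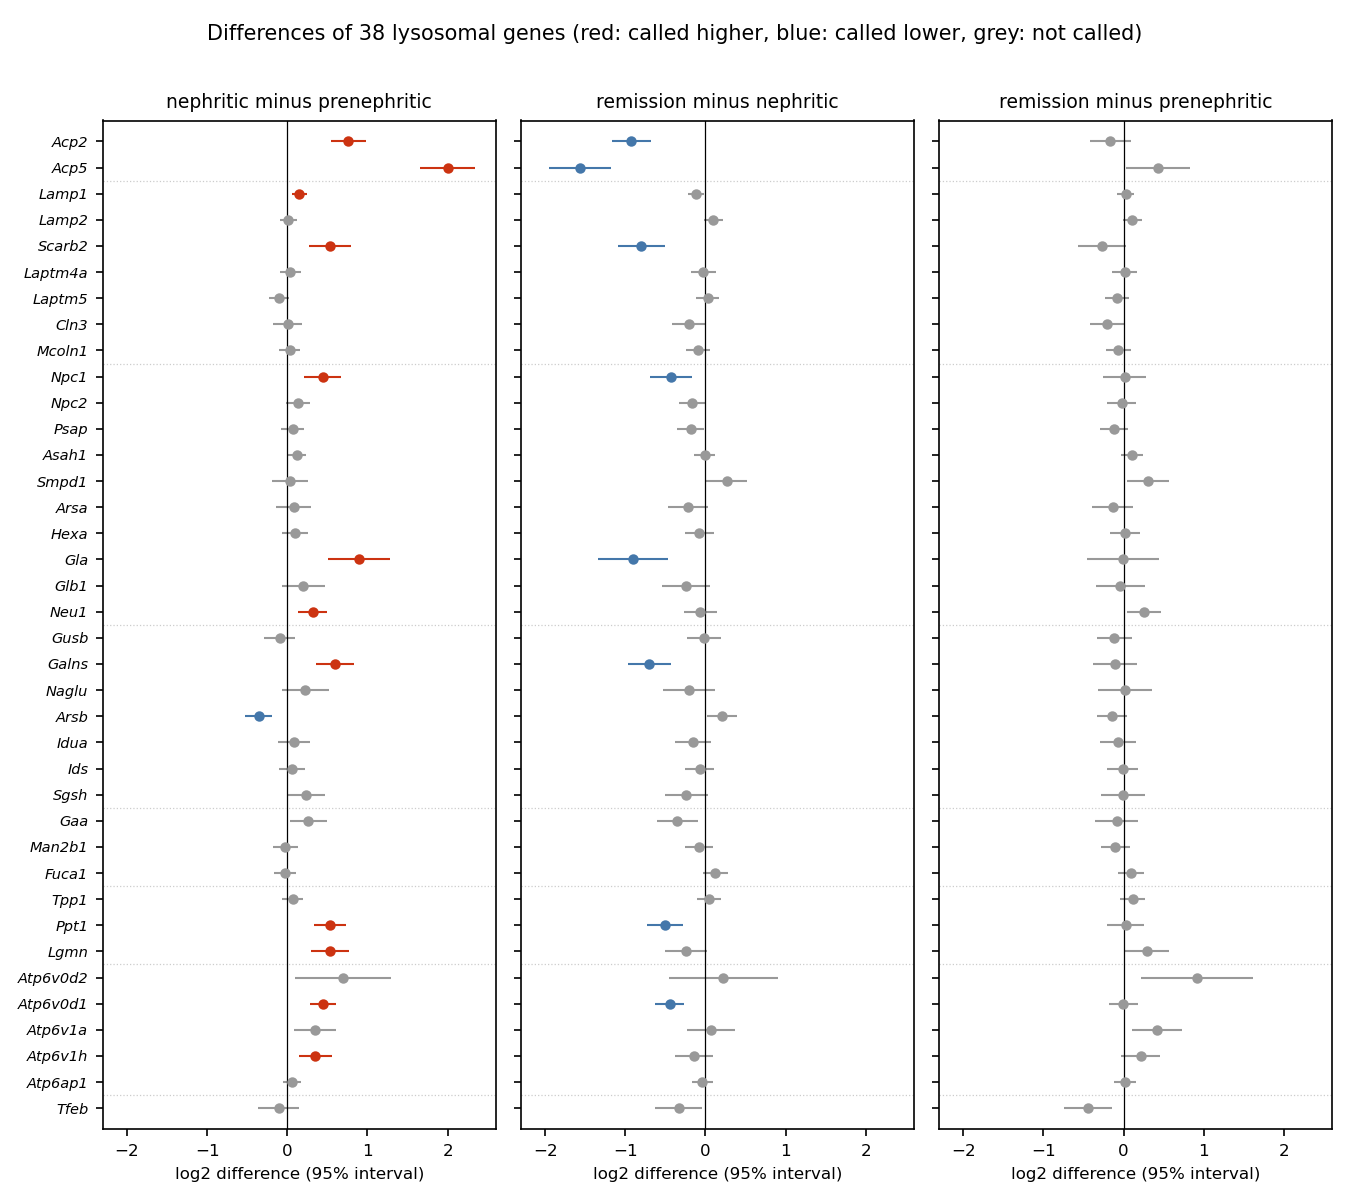
Log2 differences of the 38 measured members with 95% intervals from the limma fit, in 3 panels: nephritic minus prenephritic arrays, then remission minus nephritic, then remission minus prenephritic. Red points passed the test as higher, blue as lower and grey did not pass; 12 points are red and 1 is blue in the first panel, 8 are blue in the second and all are grey in the third.

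The promoters were searched for DNA motifs of the type that TFEB and MITF bind. RefSeq promoter windows of the assembly GRCm38.p6, from 250 bases before to 50 after the annotated start, were at hand for 33 of the 38 measured members. The searched motifs were the E-box core CACGTG, its longer forms TCACGTG and GTCACGTG, which contain the core, and the M-box core TCATGTG, each on either strand. CACGTG was present in 12 of 33 members (36.4%), against 10.5% of the 12585 measured genes with a window. The longest form GTCACGTG was present in 10 (30.3%), against 3.98%, and TCATGTG in 5 (15.2%), against 3.08%. These shares describe letters in a window and were not tested.

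Motifs were found both in members that rose and in members that did not. Of the 9 members with a window that rose in nephritic arrays, 4 held CACGTG (44.4%), and of the 23 that did not pass the test 8 did (34.8%). TCATGTG was in 4 of the 9, namely Acp5, Gla, Scarb2 and Ppt1, and in 1 of the 23 (4.35%), Tpp1. These 4 promoters are printed because they are the rising genes of largest difference that hold any of the motifs. Each is a stretch of 250 bases, 5′ to 3′ on the strand of the gene, in lower case with the motifs in capitals (CACATGA is TCATGTG read from the other strand). Those of Acp5 (chr9:22130599-22130848, minus strand, 1 of 3 annotated starts), Gla (chrX:134601006-134601255, minus strand) and Scarb2 (chr5:92505658-92505907, minus strand) end at the base before the start. That of Ppt1 (chr4:122836007-122836256, plus strand) runs 30 bases past it.
Acp5: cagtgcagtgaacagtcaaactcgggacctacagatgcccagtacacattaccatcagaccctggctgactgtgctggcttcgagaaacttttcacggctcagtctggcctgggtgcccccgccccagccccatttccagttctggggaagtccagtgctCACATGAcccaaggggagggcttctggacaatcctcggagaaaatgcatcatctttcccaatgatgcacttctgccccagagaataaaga
Gla: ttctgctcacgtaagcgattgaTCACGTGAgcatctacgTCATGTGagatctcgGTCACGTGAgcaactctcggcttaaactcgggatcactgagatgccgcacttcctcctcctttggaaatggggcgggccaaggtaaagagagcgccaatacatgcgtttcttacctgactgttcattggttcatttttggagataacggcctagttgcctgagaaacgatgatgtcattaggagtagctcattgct
Scarb2: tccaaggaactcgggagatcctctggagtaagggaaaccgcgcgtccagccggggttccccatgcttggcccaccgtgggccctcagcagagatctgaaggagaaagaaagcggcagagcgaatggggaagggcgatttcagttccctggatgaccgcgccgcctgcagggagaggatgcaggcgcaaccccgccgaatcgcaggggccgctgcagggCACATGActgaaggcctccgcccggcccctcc
Ppt1: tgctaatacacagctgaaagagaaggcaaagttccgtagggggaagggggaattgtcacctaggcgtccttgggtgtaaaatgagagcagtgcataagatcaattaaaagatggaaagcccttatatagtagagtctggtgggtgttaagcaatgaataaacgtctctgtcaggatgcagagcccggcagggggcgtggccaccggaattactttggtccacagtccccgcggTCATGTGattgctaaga

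Gla holds both kinds of motif, with 2 E-box cores and an M-box core between them, while Acp5, Scarb2 and Ppt1 hold an M-box core and no E-box core in this window. Lamp1 and Mcoln1, both genes of lysosomal membrane proteins, carry several E-box cores just before the start, 4 in Lamp1 and 2 in Mcoln1. They were chosen for printing after their values were seen, as a gene that rose slightly and a gene that did not pass the test. The stretches of 90 bases, chr8:13159081-13159170 and chr8:3500439-3500528 on the plus strand, start 80 bases before the annotated start.
Lamp1: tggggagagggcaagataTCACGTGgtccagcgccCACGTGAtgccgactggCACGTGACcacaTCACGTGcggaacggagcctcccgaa
Mcoln1: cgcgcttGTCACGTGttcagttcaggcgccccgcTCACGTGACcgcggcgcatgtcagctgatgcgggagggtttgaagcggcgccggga

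**Figure D2:**
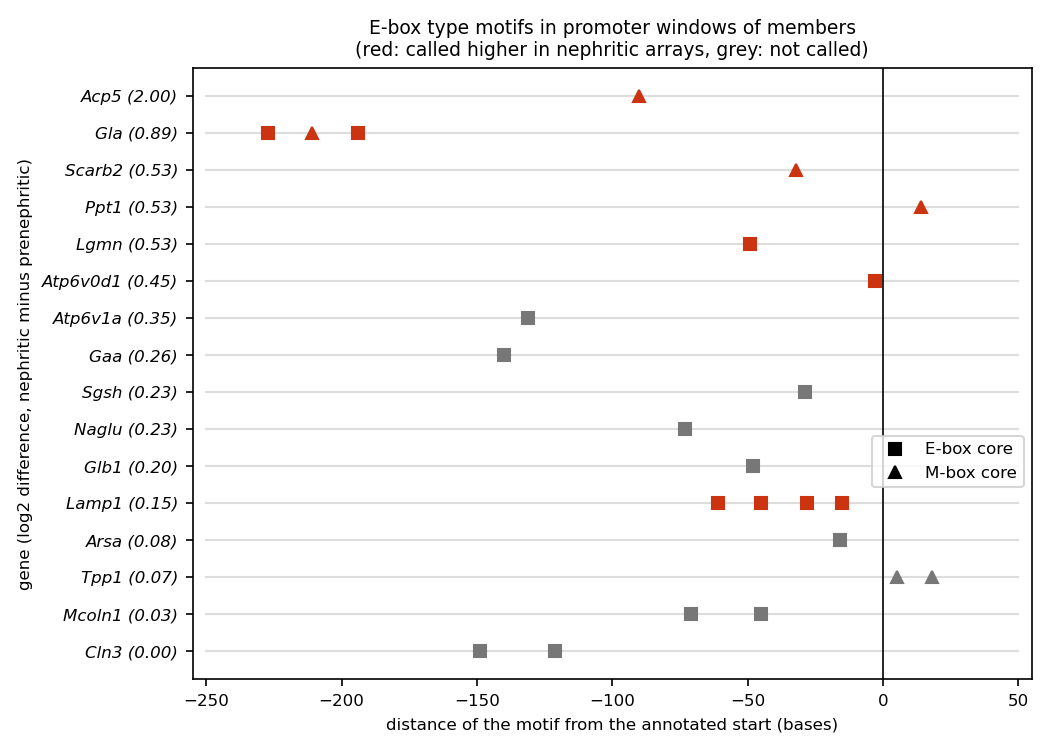
Positions of E-box cores (squares) and M-box cores (triangles) relative to the annotated start, in bases, in the members whose promoter window holds one, ordered by the log2 difference nephritic minus prenephritic given beside each name. Red marks members that rose and grey members that did not pass the test; Lamp1 has 4 E-box cores, and Tpp1 is the grey member with triangles.

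Both acid phosphatases rose in nephritic arrays and fell in remission, and Acp5 had the largest difference of all members. Acp5, whose product removes phosphate groups and is a classic marker of osteoclasts and activated macrophages, had a lowest, median and highest value of 10.38, 10.68 and 11.10 in prenephritic arrays and of 12.34, 12.76 and 13.15 in nephritic arrays. The remission arrays read 10.79, 10.81, 11.76 and 11.17. Nephritic arrays were thus above all others, with remission replicate 3 the nearest. Acp5 rose 4.01-fold in nephritic arrays (log2 difference 2.00 ± 0.16 SE, adjusted p = 3.2e-06, limma), rank 38 of 15780 among increases, and fell 2.97-fold in remission (log2 -1.57 ± 0.18, adjusted p = 9.8e-05). Between remission and prenephritic arrays it differed by 0.43 (95% interval 0.03 to 0.83), which did not pass (adjusted p = 0.24, limma).

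Acp2, the membrane-anchored lysosomal acid phosphatase, read 10.45, 10.66 and 10.92 (lowest, median and highest) in prenephritic and 11.28, 11.37 and 11.69 in nephritic arrays. In remission it read 10.33, 10.30, 10.76 and 10.69. The nephritic arrays did not overlap either group, and the remission arrays lay within or under the prenephritic range. The rise was 1.69-fold (log2 0.76 ± 0.10 SE, adjusted p = 0.00017, limma) and the fall in remission 1.90-fold (log2 -0.92 ± 0.12, adjusted p = 0.00016).

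**Figure D3:**
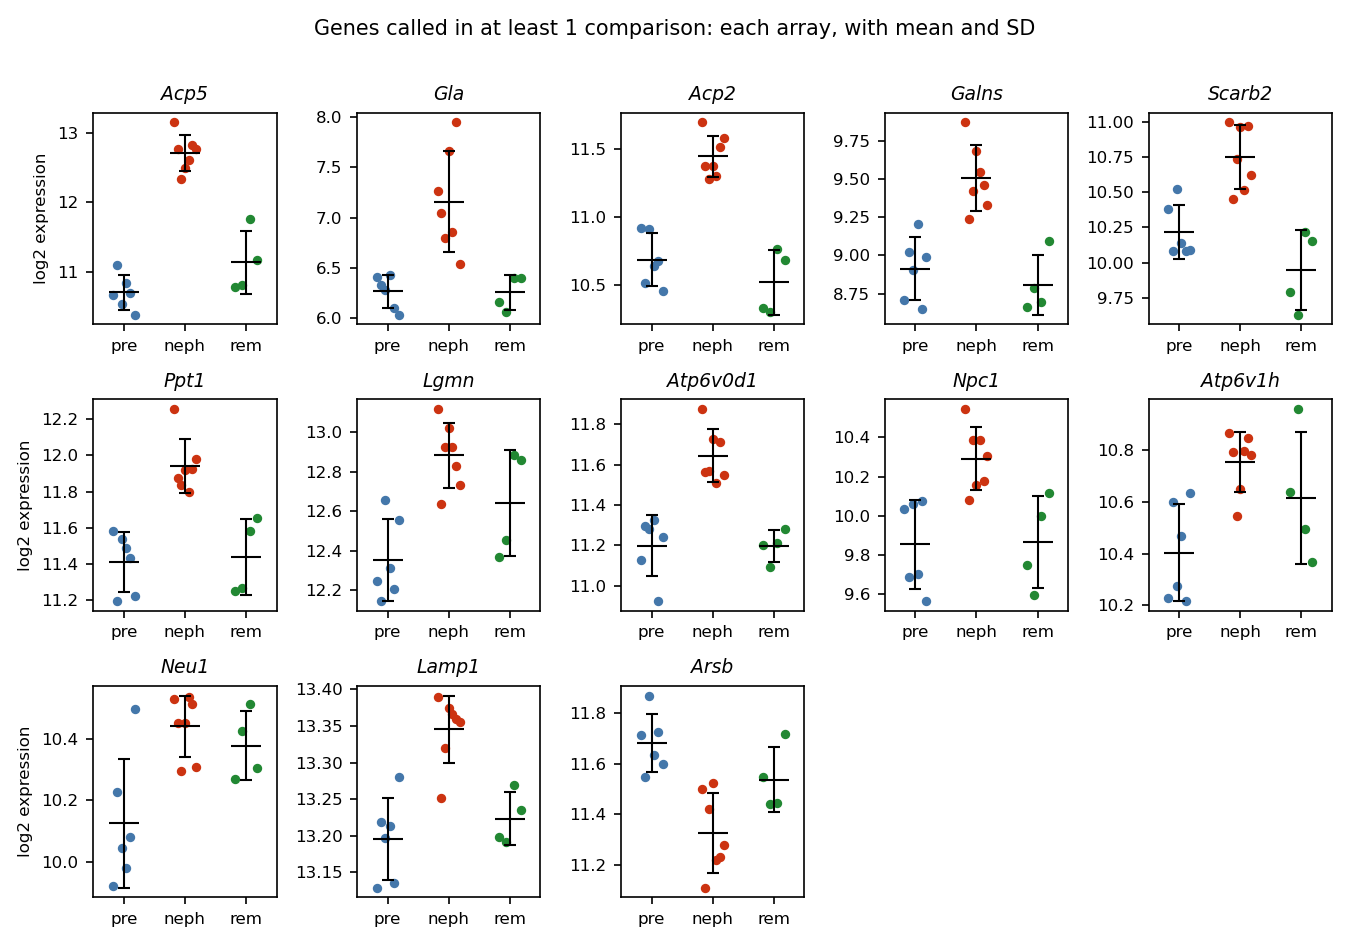
Log2 expression in every array for the 13 members that passed the test in at least 1 comparison, as points for prenephritic (pre, n = 6), nephritic (neph, n = 7) and remission (rem, n = 4) arrays; bars give the mean and SD. Each panel has its own scale: Acp5 moves by 2.00 between its first 2 group means and Lamp1 by 0.15, and Arsb is the gene with lower nephritic values.

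Of the 10 genes for cholesterol export and sphingolipid breakdown, 3 rose in nephritic arrays (Gla, Npc1 and Neu1) and 0 fell, with a median difference of 0.13. Gla encodes alpha-galactosidase A, which clears globotriaosylceramide and is deficient in Fabry disease. Its values were 6.04, 6.31 and 6.43 (lowest, median and highest) in prenephritic, 6.54, 7.04 and 7.94 in nephritic, and 6.16, 6.06, 6.40 and 6.40 in remission arrays. Every nephritic array was above every other array, but their spread (SD 0.50) was larger than in the other groups (SD 0.16 and 0.17). Gla rose 1.85-fold (log2 0.89 ± 0.18 SE, adjusted p = 0.0041, limma) and fell 1.86-fold in remission (log2 -0.90 ± 0.21, adjusted p = 0.0091).

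Npc1, the membrane transporter that exports cholesterol from lysosomes, read 9.56 to 10.08 (median 9.87) in prenephritic and 10.08 to 10.55 (median 10.30) in nephritic arrays, the closest values of the groups meeting at 10.08. It rose 1.36-fold (log2 0.44 ± 0.11 SE, adjusted p = 0.015, limma). Remission arrays ran from 9.60 to 10.11, and the fall of 0.43 (adjusted p = 0.032) did not pass without any one of nephritic replicates 1, 3 and 7 or remission replicates 1 and 2 (log2 -0.34 to -0.43, adjusted p 0.052 to 0.15). With the tubule score as a covariate the difference was -0.25 and did not pass (adjusted p = 0.25), and without the 3 arrays of most extreme tubule score it was -0.32 (adjusted p = 0.20). It also did not pass with array medians subtracted (-0.44, adjusted p = 0.065), and over the 29 settings adjusted p ranged from 0.012 to 0.254. Npc2, the soluble partner that hands cholesterol to NPC1, differed by 0.14 ± 0.07 and did not pass (adjusted p = 0.25, limma).

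Neu1, the lysosomal sialidase, averaged 10.12 ± 0.21 (SD, n = 6), 10.44 ± 0.10 (SD, n = 7) and 10.38 ± 0.11 (SD, n = 4) in prenephritic, nephritic and remission arrays. It rose by 0.32 ± 0.08 in nephritic arrays (adjusted p = 0.022, limma), but the highest prenephritic array, at 10.50, lay inside the nephritic range. The call was lost without prenephritic replicate 1 (0.27, adjusted p = 0.055) or 3 (0.30, adjusted p = 0.051), and adjusted p ranged from 0.00195 to 0.0842 over 29 alternative settings. The other sphingolipid genes did not pass in any comparison. In nephritic minus prenephritic they read 0.20 for Glb1 (beta-galactosidase), 0.12 for Asah1 (acid ceramidase), 0.10 for Hexa (a subunit of beta-hexosaminidase), 0.08 for Arsa (the sulfatide sulfatase), 0.07 for Psap (precursor of the saposins) and 0.03 for Smpd1 (acid sphingomyelinase). Smpd1 was the member with the largest positive difference between remission and nephritic arrays, 0.27 ± 0.12, which did not pass (adjusted p = 0.15, limma).

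Glycosaminoglycan breakdown held both a gene that rose and the only member that fell. Galns, a sulfatase of keratan sulfate and chondroitin sulfate, read 8.65, 8.95 and 9.20 (lowest, median and highest) in prenephritic and 9.24, 9.46 and 9.87 in nephritic arrays. In remission it read 8.66, 8.79, 8.70 and 9.09. Nephritic arrays lay above both other groups, which overlapped each other. Galns rose 1.51-fold (log2 0.59 ± 0.11 SE, adjusted p = 0.0022, limma) and fell 1.62-fold in remission (log2 -0.70 ± 0.13, adjusted p = 0.0019).

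Arsb, the sulfatase of dermatan sulfate and chondroitin sulfate, moved the other way. It read 11.55, 11.67 and 11.87 (lowest, median and highest) in prenephritic and 11.11, 11.28 and 11.52 in nephritic arrays, and 11.55, 11.44, 11.44 and 11.72 in remission. Nephritic arrays were all below prenephritic ones, and the remission values overlapped both groups. The fall was 1.28-fold (log2 -0.36 ± 0.08 SE, adjusted p = 0.0066, limma), and the difference of remission from nephritic arrays, 0.21 ± 0.09, did not pass (adjusted p = 0.12). The other 5 genes of this class act on heparan sulfate or related chains and did not pass in any comparison. Their nephritic minus prenephritic differences were 0.23 for Naglu and for Sgsh, 0.09 for Idua, 0.06 for Ids and -0.10 for Gusb (beta-glucuronidase).

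For Sgsh, the heparan sulfamidase, the call between remission and nephritic arrays changed in 2 of the 29 settings. Remission arrays read 8.30, 8.15, 8.19 and 8.90, with replicate 4 well above the others. The difference of -0.24 ± 0.12 from nephritic arrays did not pass (adjusted p = 0.22, limma). Without remission replicate 4 it was -0.41 and passed (adjusted p = 0.010, limma). It also passed with array weights, where all arrays were kept. Adjusted p ranged from 0.0101 to 0.821 over the 29 settings.

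None of the 3 glycogen and glycoprotein genes passed. Gaa, the acid glucosidase that digests glycogen, averaged 9.37 ± 0.20 (SD, n = 6), 9.63 ± 0.18 (SD, n = 7) and 9.28 ± 0.25 (SD, n = 4) in prenephritic, nephritic and remission arrays. Its differences were 0.26 (95% interval 0.03 to 0.49, adjusted p = 0.14, limma) in nephritic minus prenephritic and -0.35 (-0.61 to -0.09, adjusted p = 0.069) in remission minus nephritic arrays. The second passed without nephritic replicate 2 (-0.39, adjusted p = 0.049) or remission replicate 4 (-0.46, adjusted p = 0.017), and with array weights (-0.37, adjusted p = 0.023), with 0.0161 to 0.354 over the 29 settings. Man2b1 (alpha-mannosidase) and Fuca1 (alpha-fucosidase) differed by -0.02 and -0.03 between nephritic and prenephritic arrays.

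Of the 3 measured enzymes of protein and thioester breakdown, 2 rose. Ppt1, which strips palmitate from proteins, read 11.20, 11.46 and 11.59 (lowest, median and highest) in prenephritic and 11.80, 11.92 and 12.26 in nephritic arrays. In remission it read 11.25, 11.27, 11.58 and 11.65, all below the nephritic arrays. The rise was 1.44-fold (log2 0.53 ± 0.09 SE, adjusted p = 0.0014, limma) and the fall 1.42-fold (log2 -0.50 ± 0.11, adjusted p = 0.0053).

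Lgmn, the asparagine endopeptidase that processes antigens and other lysosomal proteases, read 12.15, 12.28 and 12.66 (lowest, median and highest) in prenephritic and 12.64, 12.92 and 13.12 in nephritic arrays. Its remission arrays, at 12.37, 12.46, 12.89 and 12.86, spread over both ranges. Lgmn rose 1.44-fold (log2 0.53 ± 0.11 SE, adjusted p = 0.0046, limma). The remission mean lay between the others, -0.24 ± 0.12 from the nephritic mean (adjusted p = 0.21) and 0.29 ± 0.13 from the prenephritic mean (adjusted p = 0.25). Tpp1, a peptidase that removes tripeptides, differed by 0.07 and did not pass.

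Among the 7 measured membrane proteins, 2 rose in nephritic arrays, and the class median was 0.03. Scarb2, the receptor that carries glucocerebrosidase to lysosomes, read 10.08, 10.12 and 10.53 (lowest, median and highest) in prenephritic and 10.45, 10.73 and 10.99 in nephritic arrays. In remission it read 9.80, 9.63, 10.22 and 10.15. The prenephritic and nephritic ranges overlapped slightly, while every remission array was below every nephritic array. Scarb2 rose 1.45-fold (log2 0.53 ± 0.12 SE, adjusted p = 0.0085, limma) and fell 1.74-fold (log2 -0.80 ± 0.14, adjusted p = 0.0014).

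Lamp1, a main glycoprotein of the lysosomal membrane, rose by 0.15 ± 0.04 (1.11-fold, adjusted p = 0.030, limma), the smallest rise that passed. Its SD was 0.06 or less in every group, and its levels were 13.20 ± 0.06 (SD, n = 6) and 13.35 ± 0.05 (SD, n = 7) in prenephritic and nephritic arrays. The call was lost without any one of prenephritic replicates 1, 3 and 5 or nephritic replicates 1, 4, 5, 6 and 7 (0.14 to 0.15, adjusted p 0.053 to 0.070), and over the 29 settings adjusted p ranged from 0.00858 to 0.132. Lamp2, its companion glycoprotein, differed by 0.01 (95% interval -0.09 to 0.12) and did not pass. The difference between both genes was not tested.

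The other membrane proteins did not pass in any comparison. Nephritic minus prenephritic differences were 0.04 for Laptm4a, 0.03 for the calcium channel Mcoln1, 0.00 for Cln3 and -0.11 for Laptm5, a membrane protein of blood cells. Mcoln1, with 2 E-box cores in the stretch printed above, read 8.97, 9.03, 9.08 and 8.98 in remission, inside its prenephritic range of 8.92 to 9.20.

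The proton pump genes had a class median of 0.35 in nephritic minus prenephritic arrays, and 2 of 5 rose. Atp6v0d1, the widely expressed form of the d subunit, read 10.92, 11.26 and 11.32 (lowest, median and highest) in prenephritic and 11.51, 11.57 and 11.87 in nephritic arrays. Remission arrays read 11.20, 11.09, 11.21 and 11.28, clear of the nephritic arrays. It rose 1.36-fold (log2 0.45 ± 0.08 SE, adjusted p = 0.00096, limma) and fell 1.36-fold (log2 -0.45 ± 0.08, adjusted p = 0.0027). Remission and prenephritic means differed by less than the SE of 0.09 (95% interval -0.19 to 0.18).

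Atp6v0d2, the form of the same subunit found in osteoclasts and in kidney epithelium, did not pass in any comparison. Its values were 6.00, 6.70 and 7.64 (lowest, median and highest) in prenephritic, 6.70, 7.24 and 8.09 in nephritic, and 7.61, 8.31, 7.48 and 6.98 in remission arrays. The 3 groups overlapped widely, with SDs of 0.61, 0.49 and 0.55. Its differences were 0.70 (95% interval 0.09 to 1.30, adjusted p = 0.13, limma) in nephritic minus prenephritic and 0.92 (0.22 to 1.62, adjusted p = 0.22) in remission minus prenephritic arrays. Without prenephritic replicate 6 the first was 0.89 (adjusted p = 0.040), with 0.0085 to 0.41 over the 29 settings.

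Intercalated cells of the kidney's collecting duct use the proton pump at high levels, so their markers are given beside Atp6v0d2. The mean of 11 intercalated cell genes ran from 5.89 to 7.37 in prenephritic, 5.61 to 7.62 in nephritic and 6.81 to 8.11 in remission arrays, and 0 of the 11 passed in any comparison. The same array was the highest of its group for Atp6v0d2 and for this mean in all groups: prenephritic replicate 6 (7.64 and 7.37), nephritic replicate 1 (8.09 and 7.62) and remission replicate 2 (8.31 and 8.11). Nephritic replicate 3 was the lowest nephritic array for both (6.70 and 5.61). At the lower end the prenephritic arrays differed: Atp6v0d2 was lowest in replicate 5 (6.00), where the intercalated cell mean was 6.77, and that mean was lowest in replicate 3 (5.89). The median nephritic minus prenephritic difference of the 11 genes was 0.09, against 0.70 for Atp6v0d2. In remission minus nephritic arrays the median was 0.74, against 0.22 for Atp6v0d2. In remission minus prenephritic arrays it was 0.87, against 0.92. The part of intercalated cell RNA in the values of Atp6v0d2 was not tested.

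**Figure D4:**
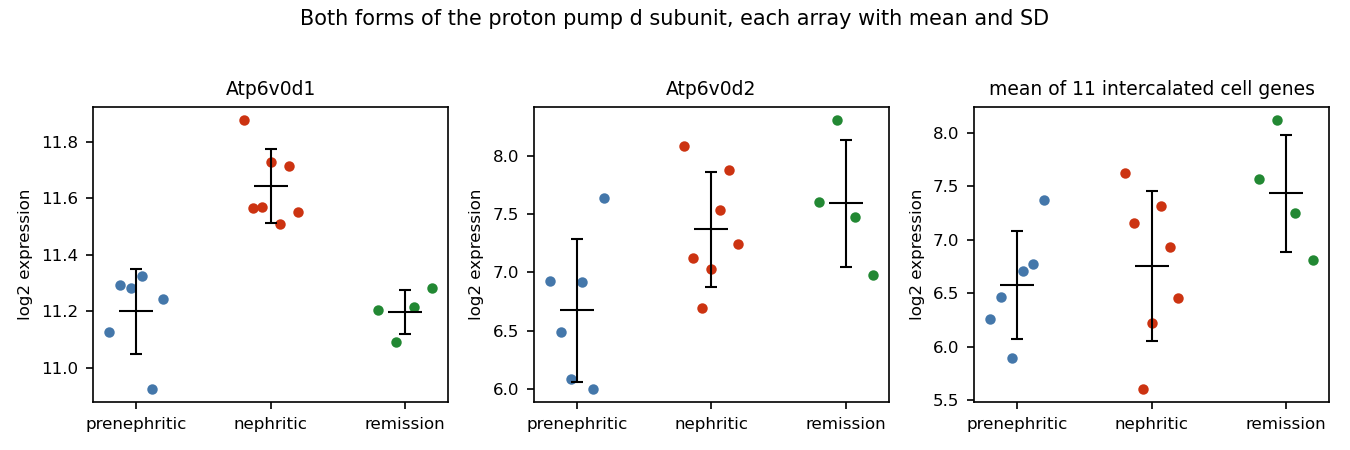
Log2 expression of Atp6v0d1, of Atp6v0d2 and the mean of 11 intercalated cell genes in each array (points), with mean and SD (bars), for prenephritic (n = 6), nephritic (n = 7) and remission (n = 4) arrays. Atp6v0d1 is high in nephritic arrays alone, from 11.51 to 11.87, whereas Atp6v0d2 and the intercalated cell mean are both highest in remission replicate 2, at 8.31 and 8.11.

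The catalytic subunit gene Atp6v1a averaged 11.37 ± 0.22 (SD, n = 6), 11.72 ± 0.19 (SD, n = 7) and 11.79 ± 0.33 (SD, n = 4) in prenephritic, nephritic and remission arrays. Its nephritic minus prenephritic difference of 0.35 ± 0.13 did not pass (adjusted p = 0.087, limma). It passed without prenephritic replicate 6 (0.42, adjusted p = 0.034), nephritic replicate 3 (0.40, adjusted p = 0.047) or remission replicate 4 (0.35, adjusted p = 0.043), with 0.00322 to 0.264 over the 29 settings. Atp6v1h, the regulatory H subunit, rose by 0.35 ± 0.10 (1.28-fold, adjusted p = 0.028, limma). That call was lost without any one of prenephritic replicates 1, 3 and 5 or nephritic replicates 1 and 6 (0.31 to 0.34, adjusted p 0.054 to 0.069), with 0.0011 to 0.116 over the 29 settings. The remission minus nephritic difference of Atp6v1h was -0.14 ± 0.11 (adjusted p = 0.44, limma). With the tubule score as a covariate it was -0.35 and passed (adjusted p = 0.028), with 0.0281 to 0.783 over the 29 settings. Both subunits were highest in remission replicate 2 among the remission arrays, at 12.10 and 10.96, an array in which 21 of the 38 members had their lowest remission value. Atp6ap1, an accessory subunit, differed by 0.06 and did not pass.

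Tfeb itself did not pass in any comparison. It read 8.45, 8.70 and 8.86 (lowest, median and highest) in prenephritic, 8.16, 8.69 and 8.83 in nephritic, and 8.08, 8.04, 8.16 and 8.65 in remission arrays. The nephritic minus prenephritic difference was -0.11 (95% interval -0.37 to 0.15). In remission 3 of 4 arrays read 8.16 or less, below every prenephritic array. Remission replicates 1 and 2 were also below every nephritic array, while replicate 3 lay just inside the nephritic range. The differences were -0.33 from nephritic (95% interval -0.63 to -0.04, adjusted p = 0.12, limma) and -0.44 from prenephritic arrays (-0.74 to -0.14, adjusted p = 0.19). Without remission replicate 4 the former was -0.47 (adjusted p = 0.022), and without nephritic replicate 2 it was -0.40 (adjusted p = 0.046), with 0.0218 to 0.516 over the 29 settings.

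Between remission and prenephritic arrays no member passed, in a comparison in which 0% of all genes rose and 0.00634% fell (limma, adjusted p under 0.05). At an unadjusted p under 0.05, 6 members were higher and 1 was lower, while 18.7% of all genes reached that level in either direction. The median over the 38 was 0.00 (range -0.44 to 0.92), with 18 above 0, against -0.05 over all genes. The 95% intervals had a median half-width of 0.22 over the members.

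Members that did not pass were not shown to be unchanged. In nephritic minus prenephritic arrays 25 members did not pass, with differences from -0.11 to 0.70 and a median half-width of the 95% interval of 0.16. The arrays also differed across members within a group. Nephritic replicate 1 had the highest nephritic value in 20 of the 38 members and nephritic replicate 2 the lowest in 19. Remission replicate 4 had the highest remission value in 24 and remission replicate 2 the lowest in 21.

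**Figure D5:**
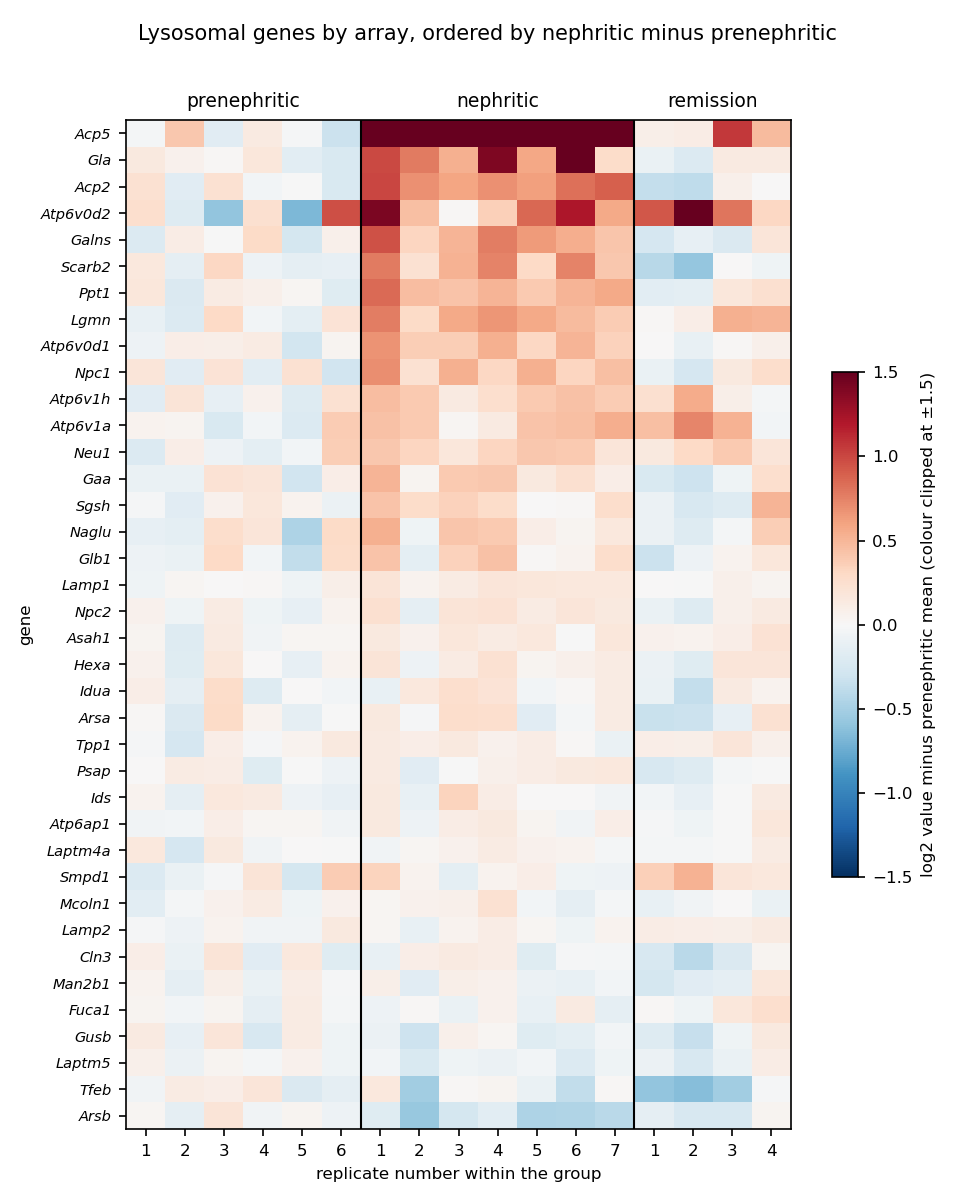
Log2 value minus the prenephritic mean for each member (rows, ordered by nephritic minus prenephritic) in each array (columns, by group and replicate number), red for higher and blue for lower, with colour clipped at 1.5. Acp5 at the top is red in all 7 nephritic arrays, Arsb at the bottom is blue there, and remission replicate 4 is redder than the other remission arrays in many rows.

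Other lysosomal genes were read in lists by role, beside 6.74% of all genes that rose and 5.32% that fell in nephritic arrays and an all-gene median of -0.02. From nephritic to remission arrays 10% of all genes fell and 3.27% rose, with a median of -0.03. The counts of every related list stand beside these shares. Of 19 further hydrolases and cofactors, 6 rose in nephritic arrays, 0 fell, and the median was 0.22. Dpp7, a dipeptidyl peptidase, rose by 0.53 ± 0.09 (adjusted p = 0.00099, limma), and Grn, the gene of the lysosomal glycoprotein progranulin, by 0.41 ± 0.07 (adjusted p = 0.0015). Gm2a, a ganglioside activator, rose by 0.33, and Ctbs, a chitobiase, by 0.36. From nephritic to remission 5 of the 19 fell and 0 rose, among them Grn (-0.45 ± 0.08, adjusted p = 0.0021, limma) and Prcp, a carboxypeptidase (-0.57 ± 0.12, adjusted p = 0.0066).

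Of 16 further membrane proteins, 3 rose and 2 fell, with a median of 0.03. The largest was Gpnmb, a glycoprotein of lysosomes and melanosomes and a known MITF target, which rose by 1.78 ± 0.39 from 5.54 ± 0.60 (SD, n = 6) to 7.32 ± 1.03 (SD, n = 7; adjusted p = 0.0067, limma) and averaged 5.07 ± 0.14 (SD, n = 4) in remission. Clcn7, the chloride transporter of lysosomes, rose by 0.54 ± 0.08 (adjusted p = 0.00033, limma) and fell by 0.52 ± 0.09 in remission (adjusted p = 0.0014). Laptm4b fell by 0.42 ± 0.10 in nephritic arrays (adjusted p = 0.015, limma) and was higher by 0.51 in remission than in nephritic arrays (adjusted p = 0.0092). Of these 16, 1 rose and 2 fell from nephritic to remission arrays, where 3.27% of all genes rose and 10% fell.

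Of 12 other proton pump subunits, 2 rose in nephritic arrays and 0 fell, with a median of 0.13. Atp6v1b2, the B subunit form of macrophages and many other cells, rose by 0.59 ± 0.09 (adjusted p = 0.00029, limma) and fell by 0.62 ± 0.10 in remission (adjusted p = 0.00061). Atp6v1c1 rose by 0.28 ± 0.07 (adjusted p = 0.0091, limma). From nephritic to remission arrays 2 of 12 fell, Atp6v1b2 and Atp6v0a2, and 0 rose, where 10% of all genes fell and 3.27% rose.

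Of 19 genes for sorting of enzymes to lysosomes, 3 rose in nephritic arrays and 0 fell (median 0.14). From nephritic to remission 9 fell and 0 rose (median -0.31), where 10% of all genes fell and 3.27% rose. Gga2, an adaptor for mannose-phosphate receptors, rose by 0.57 ± 0.08 (adjusted p = 0.00021, limma). The sorting receptor Sort1 rose by 0.61 ± 0.15 (adjusted p = 0.014, limma) and fell by 0.71 ± 0.17 (adjusted p = 0.011). Gnptab, which makes the mannose-phosphate tag, rose by 0.32 and fell by 0.42. Ap1b1, a subunit of a clathrin adaptor complex, fell in remission by 0.37.

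Regulators and autophagy genes were measured as well. Of 18 regulators 1 rose, Lamtor1, a subunit of the complex that anchors nutrient signalling to lysosomes (0.53 ± 0.11, adjusted p = 0.0060, limma). It fell by 0.60 in remission and was the 1 regulator to do so; the list median was 0.08 and then -0.06. The TFEB relatives did not pass between nephritic and prenephritic arrays: Mitf differed by -0.32 ± 0.13, Tfe3 by -0.08 ± 0.08 and Tfec by 0.44 ± 0.32. Of 16 autophagy genes 4 rose, Atg5, Atg9a, Gabarap and Ulk1 (0.39, 0.38, 0.19 and 0.21), 0 fell, and 3 fell in remission, with medians of 0.12 and -0.09.

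Since Acp5 and Atp6v0d2 are known from osteoclasts and multinucleated giant cells, 14 other genes of those cells were read. Trem2, a lipid receptor, rose by 0.90 ± 0.20 (adjusted p = 0.0060, limma), and Src, a kinase, by 0.49 ± 0.12 (adjusted p = 0.016). Mmp9, a gelatinase, fell by 1.47 ± 0.27 (adjusted p = 0.0019, limma). The fusion genes Dcstamp and Ocstamp differed by 0.47 ± 0.45 and 0.09 ± 0.18, and the receptor genes Calcr, Oscar and Tnfrsf11a by 0.26, -0.10 and 0.10; none of these passed. Of the 14 genes 3 had every group mean below 5.00, the lower quartile over all probe sets. The list medians were 0.08 in nephritic and -0.17 in remission arrays, each against the group before, and 1 gene, Src, fell in remission (-0.49). In every related list here, 0 genes passed between remission and prenephritic arrays.

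Some markers of other immune cells also differed in nephritic arrays, in both directions, where 6.74% of all genes rose and 5.32% fell. In nephritic against prenephritic arrays, 4 of 8 B and plasma cell genes rose and 1 fell, 4 of 11 T and NK cell genes rose and 1 fell, 3 of 8 monocyte genes rose and 0 fell, 1 of 8 neutrophil genes rose and 0 fell, and 1 of 9 dendritic cell genes rose and 3 fell. The mean level of the B and plasma cell list ran from 6.08 to 7.25 in prenephritic, 6.96 to 7.76 in nephritic and 6.51 to 6.74 in remission arrays. For T and NK cells the ranges were 5.39 to 6.09, 5.65 to 6.14 and 5.24 to 5.47, and for monocytes 8.04 to 8.96, 8.40 to 9.39 and 7.93 to 8.54. In each of these 3 lists 2 genes had every group mean below the lower quartile. Of 12 macrophage genes 3 rose and 1 fell. From nephritic to remission arrays, 10% of all genes fell and 3.27% rose. In that comparison 6 of 11 T and NK cell genes fell and 0 rose (median -0.60), and 3 of 8 monocyte genes fell and 0 rose (median -0.45). Of the 8 B and plasma cell genes 2 fell and 1 rose (median -0.65), of the 8 neutrophil genes 1 fell, of the 9 dendritic cell genes 2 fell and 1 rose, and of the 12 macrophage genes 3 fell. The part of other immune cells in the differences of the lysosomal genes was not tested.

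Among kidney cell lists, 0 of 16 proximal tubule and 0 of 16 distal tubule genes passed between nephritic and prenephritic arrays (medians -0.40 and -0.04). From nephritic to remission arrays 1 and 3 of them rose, where 3.27% of all genes rose. Their medians there were 1.23 and 1.17, against -0.03 over all genes. In remission minus prenephritic arrays the medians were 0.87 and 1.03, and 0 genes of either list passed. Of 10 endothelial genes 1 rose and 0 fell, and of 9 podocyte and mesangial genes 1 rose and 1 fell in nephritic arrays. In remission minus nephritic arrays the medians of these 2 lists were 0.43 and -0.23. With the tubule score as a covariate, 14 members rose in nephritic arrays and 8 fell in remission, 7 of them among the 8 named above. In that setting 1378 of all 15780 genes rose in nephritic arrays and 829 fell in remission.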

How the data were processed

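Gene expression was measured on 17 Affymetrix arrays of sorted kidney macrophages, grouped by the sample titles into prenephritic (6), nephritic (7) and remission (4). Per the submitters' processing notes, the authors deposited log2 values made by RMA (background correction, quantile normalization and a summary per probe set). No source used here gives its version or the probe definition. Quantile normalization gives the probe intensities of all arrays one distribution before the summary, after which the probe set values still differ slightly between arrays. A change of total RNA therefore cannot be read, and RMA compresses differences of dim genes. The number of arrays limits the precision.

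Of 16539 probe sets, 64 were controls and 695 had no gene symbol in GEO's platform annotation, and 15780 with 1 symbol were tested. All 17 arrays entered 1 fit of the group means with limma 3.58.1 in R 4.3.3 (14 residual degrees of freedom), with moderated two-sided tests, Benjamini-Hochberg adjustment over the genes of each comparison and a threshold of 0.05. No filter was used. The fit was tested on simulated data. The alternatives changed the scaling, the filter, the genes tested, the variance prior, the array weights, the arrays fitted, the threshold, the tubule covariate and the replicate block, and left out arrays. The alternative without the 3 arrays farthest from the median tubule score was chosen after seeing the data.

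The members, related lists and cell type lists were chosen with earlier results of these data known. All members are accounted for: full values are given for those that passed with a log2 difference of at least 0.5, and at most 4 genes with the smallest p are named per related list and comparison, beside regulators, osteoclast genes and other members named for their role. Promoter sequences are from RefSeq (GRCm38.p6), for up to 4 members that passed with the largest nephritic difference and a motif, and for 2 chosen after their values were seen.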

Additional observations from a re-analysis of the deposited data

Results flagged for a closer look

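In 114 checks, 1 for each of the 38 members in each group, 3 arrays stood apart from the rest of their group by Dixon's criterion, which chance alone meets in about 1 of 20 groups. Laptm4a was highest in remission replicate 4, at 12.67 on the log2 scale, with the next remission array at 12.54. Npc2 was lowest in nephritic replicate 2, at 12.66, with the next nephritic array at 12.93. Ppt1 was highest in nephritic replicate 1, at 12.26, with the next at 11.98.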

How the results depend on the processing

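Over 29 alternative settings no member that passed changed direction. Of the 13 members that passed between nephritic and prenephritic arrays, 9 passed in every alternative. Of the 8 that fell in remission, 7 did, all but Npc1. The count of 12 rising members ranged from 9 to 14 when single arrays were left out. It was 8 at a threshold of 0.01, where 553 of all 15780 genes rose. The count of 8 falling members ranged from 7 to 12, with 12 without remission replicate 4, where 1940 of all genes fell. With the tubule score as a covariate, 1 member (Arsb) rose from nephritic to remission, and with array weights 1 member (Tfeb) was lower in remission than in prenephritic arrays. The labels number the samples of each group, and deviations of same-numbered samples correlated from -0.261 to 0.797. Differently numbered samples were not compared, so whether the numbers pair the samples was not tested. The block added calls of Gaa in nephritic minus prenephritic (0.29, adjusted p = 0.048, limma) and remission minus nephritic arrays (-0.42, adjusted p = 0.016), and ended that of Lamp1 (0.15, adjusted p = 0.095). With the replicate block 12 members rose, 9 fell in remission, and 0 passed between remission and prenephritic arrays, although 234 genes rose and 244 fell there. Over all genes, 945 rose in nephritic arrays and 1823 fell in remission with the block.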

Other observations

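A few members ordered the remission arrays unlike most others. The tubule scores of remission replicates 1 to 4 were 1.08, 1.40, 0.71 and -0.04, and the mean centred levels of the 38 members were -0.17, -0.17, -0.03 and 0.04. Remission replicate 2, with the highest tubule score of all arrays, had the highest remission value in 4 members: Atp6v0d2, Atp6v1a, Atp6v1h and Smpd1. The proton pump genes Atp6v0d1 and Atp6ap1 had their lowest remission value there, at 11.09 and 12.78, and their highest in replicate 4, at 11.28 and 13.02. With the tubule score as a covariate, the nephritic minus prenephritic difference was 0.82 for Atp6v0d2 (adjusted p = 0.0085, limma) and 0.40 for Atp6v1a (adjusted p = 0.0032), and both passed. For Atp6v1h the same covariate gave a remission minus nephritic difference of -0.35 that passed (adjusted p = 0.028, with 0.0281 to 0.783 over the 29 alternatives). Over the 29 alternatives adjusted p ranged from 0.0085 to 0.41 for Atp6v0d2 and from 0.00322 to 0.264 for Atp6v1a. What sets the order of the arrays was not tested.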
